A study of Homo sapiens with 6 samples.

Results

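The 6 genes described here encode the kinases that phosphorylate translation initiation factor eIF2 and the subunits that direct its phosphatase. They were matched by symbol, as EIF2AK1, EIF2AK2, EIF2AK3, EIF2AK4, PPP1R15A and PPP1R15B, and 6 of 6 were present among the 11911 genes of the deposited table. The list of symbols was made with earlier results of these data known. RNA had been sequenced from RS4;11 cells, an established human leukemia line of the B-cell precursor type with a KMT2A::AFF1 fusion. By the titles, 3 libraries came from cells without asparagine (called depleted here) and 3 from cells with asparagine, and the series' design puts RNA extraction at 16 hours after withdrawal. The treatment entry, cells spun down and taken up in asparagine-free medium with 10% dialyzed serum, is repeated for each of the 6 samples, and what the cells with asparagine received is left unsaid. The column names begin with Ctrl in both arms, followed by unt in the arm with asparagine and aspg in the depleted arm. The latter could stand for asparaginase, whereas the titles speak only of asparagine. A single cell line was used. Whether replicates were grown as separate cultures is not stated, and the spread that the p-values rest on may be technical.

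Phosphorylation of the eIF2 alpha subunit blocks the exchange factor eIF2B, which lowers general protein synthesis while a few mRNAs with upstream reading frames, ATF4 among them, are translated more. Each kinase answers to its own signal: EIF2AK4 (GCN2) to uncharged tRNA and stalled ribosomes, EIF2AK3 (PERK) to misfolded protein in the endoplasmic reticulum, EIF2AK2 (PKR) to double-stranded RNA and EIF2AK1 (HRI) to lack of heme and to mitochondrial stress. PPP1R15A (GADD34), a stress-induced subunit, and PPP1R15B (CReP), a constitutive one, bring protein phosphatase 1 to eIF2 and reverse the mark. The kinases are switched on by protein modification, which RNA levels do not measure.

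Values are the authors' normalized CPM, read counts scaled by sequencing depth and a further factor that is not stated. They summed to 918783 to 952458 CPM per depleted library and 1018766 to 1031234 CPM per library with asparagine, which depth alone does not give. The reads behind them were 29971364 to 40577308 per depleted library and 36611101 to 51127073 per library with asparagine. Depleted library 1 stood apart, with Pearson's r across genes of 0.940 and 0.933 to depleted libraries 2 and 3, against 0.996 between depleted libraries 2 and 3 (the 3 pairs with asparagine gave 0.992 to 0.996). Its r to the libraries with asparagine was nearly as high, 0.927 to 0.928, against 0.845 to 0.882 for depleted libraries 2 and 3. The difference among depleted libraries ran with the GC content of transcripts. In the lowest of 5 GC classes the median log2 difference from the mean with asparagine was 0.03, 0.81 and 0.87 in depleted libraries 1, 2 and 3. In the highest class it was -0.09, -0.86 and -0.89. Tests of single genes, shares and ratios are therefore given as deposited and after a GC correction, which takes out of each library its trend with GC content. Levels in CPM and per kilobase, and the likeness of genes to the members, are given as deposited. The cause of the trend was not tested. Of 10 B-cell precursor markers 10 were in the table, with summed CPM of 2995 to 3689 in depleted cells and 3349 to 3502 with asparagine, but the sum was led by PAX5, which rose (log2 fold change 0.41). Of these 10 markers 1 was higher, 4 were lower and 5 did not pass (median -0.53), with 3 higher and 6 lower after the GC correction (median -0.50). VPREB1, a surrogate light chain gene, averaged 120 ± 42.9 CPM in depleted cells and 438 ± 17.4 CPM with asparagine (-1.91), and CD22 166 ± 20.1 CPM in depleted cells and 312 ± 11.5 CPM with asparagine (-0.91). The part of these markers in the results below was not tested. Of 12 markers of other blood cells 2 were in the table, CSF1R and NKG7, with sums of 56.5 to 98.1 CPM in depleted cells and 88.0 to 97.3 CPM with asparagine, and neither passed. In bulk RNA, fewer cells of a type and less RNA per cell cannot be told apart.

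By limma's moderated test on log2(CPM + 1) over 11892 genes with Benjamini-Hochberg adjustment, 3 of the 6 genes were higher in depleted cells and 1 was lower at an adjusted p under 0.05. PPP1R15A rose 18.1-fold, PPP1R15B and EIF2AK3 rose less than 2-fold, EIF2AK1 fell, and EIF2AK2 and EIF2AK4 did not pass. Of all genes tested, 25.1% were higher and 26.2% lower by the same rule (51.3% in all), so the count of members called is near the background. In 5 of 6 members the 3 depleted values did not overlap the 3 with asparagine (3 higher, 2 lower), against 30.2% of genes higher, 30.8% lower and 61.1% in either direction. Every member was well covered, with 917 to 24407 reads per library.

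**Figure D1:**
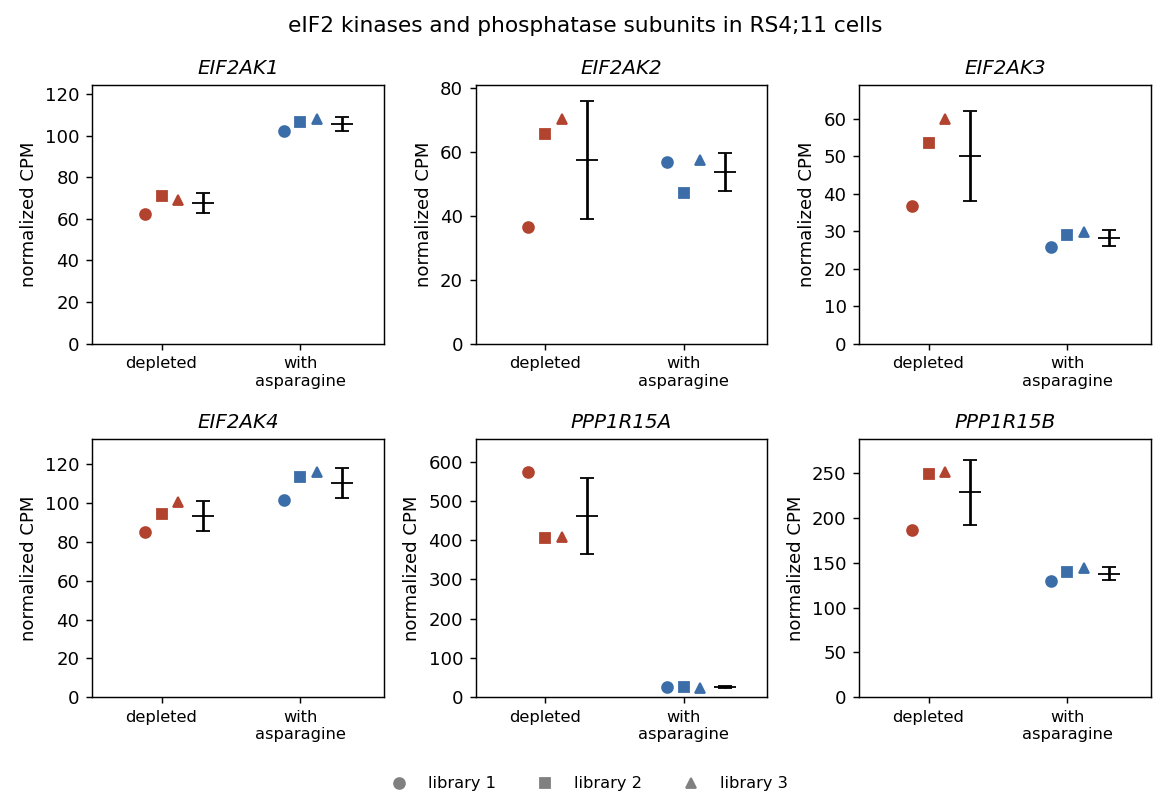
Normalized CPM of each member (y axis, from 0, with its own range per gene) in the 3 depleted libraries (red, left) and the 3 libraries with asparagine (blue, right). Symbols mark library numbers, and bars show mean ± SD (n = 3); PPP1R15A lies between 404 and 573 CPM in depleted cells and between 22.7 and 26.9 with asparagine.

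PPP1R15A (chromosome 19, 48872392 to 48876057 of GRCh38 in GENCODE 29, plus strand) encodes the inducible phosphatase subunit that closes the feedback loop on eIF2. It had 573, 404 and 408 CPM in depleted libraries 1, 2 and 3, against 26.8, 26.9 and 22.7 CPM in libraries 1, 2 and 3 with asparagine. Every depleted value was far above every value with asparagine, and depleted library 1 was the highest. The means were 462 ± 96.3 CPM in depleted cells and 25.5 ± 2.39 CPM with asparagine (SD, n = 3 each). On the log2 scale the change was 4.11 with a standard error of 0.17 (adjusted p = 4.35e-05), the 15th largest increase of the 11892 genes. With GC corrected the change was 4.53 (adjusted p = 5.37e-08), with differences of 4.49, 4.53 and 4.58 in the 3 depleted libraries. Its transcripts have 57.7% GC, in a class of which 14.1% of genes were higher and 39.9% lower.

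PPP1R15B (chromosome 1, 204403387 to 204411791, minus strand) encodes the constitutive subunit, which keeps eIF2 dephosphorylated in unstressed cells. It had 187, 249 and 251 CPM in depleted libraries 1, 2 and 3, against 130, 140 and 144 CPM with asparagine. The groups did not overlap, and here depleted library 1 was the lowest of its arm. The means were 229 ± 36.2 CPM in depleted cells and 138 ± 7.36 CPM with asparagine (SD, n = 3 each), a 1.66-fold difference, or 0.72 on the log2 scale with a standard error of 0.15 (adjusted p = 0.00816). After the GC correction the log2 fold change was 0.34 (adjusted p = 0.00145), with 0.39, 0.33 and 0.31 in depleted libraries 1, 2 and 3. With 43.4% GC it falls in a class of which 37.9% of genes were higher and 14.2% lower. An antisense gene, AL606489.1, covers its whole length in the annotation and is not in the table, and since no strand setting is stated, reads of the pair cannot be told apart.

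The promoters of these subunits, both of which rose, are shown, while that of EIF2AK3, which rose too and held 0 matches, is not. Those shown are the 250 bases before the RefSeq start site, 5′ to 3′ on the gene's strand, in build GRCh38.p14. They lie at chr19:48872171-48872420 (plus strand) and chr1:204411818-204412067 (minus strand). Capitals mark matches, on either strand, to any of 5 motifs: TGATGNAA (the composite element of ATF and C/EBP factors), TGACGTCA (the cyclic AMP response element), its shorter core TGACG, the core of the interferon response element and TATAAA (the TATA box).
PPP1R15A: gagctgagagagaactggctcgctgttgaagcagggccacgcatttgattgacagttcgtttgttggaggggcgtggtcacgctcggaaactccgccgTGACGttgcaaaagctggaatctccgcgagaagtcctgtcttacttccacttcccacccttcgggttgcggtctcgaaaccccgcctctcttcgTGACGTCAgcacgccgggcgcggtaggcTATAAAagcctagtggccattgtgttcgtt
PPP1R15B: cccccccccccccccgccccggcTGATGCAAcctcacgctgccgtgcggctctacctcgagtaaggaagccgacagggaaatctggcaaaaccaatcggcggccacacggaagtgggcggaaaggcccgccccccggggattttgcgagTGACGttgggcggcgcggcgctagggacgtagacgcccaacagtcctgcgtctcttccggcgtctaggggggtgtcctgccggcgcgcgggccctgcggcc
PPP1R15A held TGACGTCA from base 58 before the start, a further TGACG from base 152 and TATAAA from base 30. The GENCODE start of PPP1R15A lies upstream of the RefSeq start, so that the last bases shown, with most of TATAAA, fall inside the GENCODE gene. PPP1R15B held TGATGCAA, a match to TGATGNAA, from base 227 and TGACG from base 101. Of 27305 RefSeq promoters cut to the same length, 1.77% held TGACGTCA, 21.7% TGACG (which includes every TGACGTCA), 3.19% TGATGNAA, 3.07% the interferon response element core and 11.1% TATAAA. Among the 8985 promoters of genes in the table the shares were 2.98%, 30.7%, 1.38%, 2.43% and 4.92%. Promoters of 5 of the 6 members were matched (all but EIF2AK1), and the 250 bases of EIF2AK2, EIF2AK3 and EIF2AK4 held 0 matches. In EIF2AK2 and EIF2AK3 the GENCODE start likewise lies upstream of the RefSeq start, so the last bases searched fall inside the gene. Bases past the RefSeq start were not searched, so 0 matches does not mean that a promoter lacks these elements. A match is a run of letters and no evidence of binding.

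EIF2AK3 (PERK; chromosome 2, 88556741 to 88627576, minus strand) was the kinase gene that rose. It had 36.8, 53.5 and 60.1 CPM in depleted libraries 1, 2 and 3, against 25.8, 29.1 and 29.9 CPM with asparagine. The groups did not overlap, but depleted library 1 was closer to the libraries with asparagine than the other depleted libraries were. The means were 50.1 ± 11.98 CPM in depleted cells and 28.3 ± 2.18 CPM with asparagine (SD, n = 3 each), a 1.77-fold difference, or 0.78 on the log2 scale with a standard error of 0.20 (adjusted p = 0.0173). With GC corrected the change was 0.34 (adjusted p = 0.00943), with 0.34, 0.27 and 0.40 in the 3 depleted libraries. Its GC content of 42.0% lies in the lowest class, of which 37.9% of genes were higher and 5.02% lower. The call ended when depleted library 2 or 3 or library 1 or 2 with asparagine was left out (adjusted p = 0.0642, 0.0547, 0.0739 and 0.0589). An antisense gene, AC104134.1, which is not in the table, shares 18870 bases of the locus.

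EIF2AK1 (HRI; chromosome 7, 6022244 to 6059230, minus strand) was the member that fell. It had 62.1, 71.2 and 69.3 CPM in depleted libraries 1, 2 and 3, against 102, 107 and 108 CPM with asparagine. The groups were well apart and the spread within each was small, including depleted library 1. The means were 67.5 ± 4.77 CPM in depleted cells and 106 ± 3.18 CPM with asparagine (SD, n = 3 each), a change of -0.64 on the log2 scale with a standard error of 0.12 (adjusted p = 0.00484). With GC corrected the change was -0.63 (adjusted p = 0.000305). Its GC content of 50.3%, a median over annotated transcripts, is in the middle class, of which 27.7% of genes were higher and 27.3% lower. The median length of those transcripts is 782 bases, against 4469 for the principal one, so the value may not describe the main mRNA. The gene shares 1591 bases with AIMP2 on the other strand, which averaged 24.9 CPM in depleted cells and 31.7 CPM with asparagine and did not pass (adjusted p = 0.158). It also shares 5011 bases with ANKRD61 on the other strand, which is not in the table.

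EIF2AK4 (GCN2; chromosome 15, 39934146 to 40035591, plus strand), the kinase that senses amino acid shortage, had 85.4, 94.2 and 100.6 CPM in depleted libraries 1, 2 and 3, against 102, 114 and 116 CPM with asparagine. The highest depleted value lay just below the lowest value with asparagine. The means were 93.4 ± 7.63 CPM in depleted cells and 110.4 ± 7.57 CPM with asparagine (SD, n = 3 each), and the log2 fold change of -0.24 (95% interval -0.53 to 0.05) did not pass (adjusted p = 0.141). With GC corrected the change was -0.43 and passed (adjusted p = 0.000459), with -0.41, -0.48 and -0.40 in depleted libraries 1, 2 and 3.

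EIF2AK2 (PKR; chromosome 2, 37099210 to 37157065, minus strand) had 36.4, 65.6 and 70.4 CPM in depleted libraries 1, 2 and 3, against 56.7, 47.0 and 57.6 CPM with asparagine. Depleted library 1 was below, and depleted libraries 2 and 3 above, all libraries with asparagine. The means were 57.5 ± 18.4 CPM in depleted cells and 53.8 ± 5.89 CPM with asparagine (SD, n = 3 each), with a log2 fold change of 0.04 (95% interval -0.57 to 0.66, adjusted p = 0.894). Depleted library 1 differed from the mean with asparagine by -0.54 on the log2 scale, and depleted libraries 2 and 3 by 0.29 and 0.39. Without depleted library 1 the log2 fold change was 0.34 (adjusted p = 0.0109). At 40.4% it has the lowest GC content of the members, and after the GC correction its 3 depleted libraries gave -0.57, -0.46 and -0.40, a log2 fold change of -0.48 (adjusted p = 0.000639). The transcripts behind that GC content have a median length of 1533 bases, against 4343 for the principal one. The GC value, and with it the corrected change, may thus not describe the main mRNA.

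**Figure D2:**
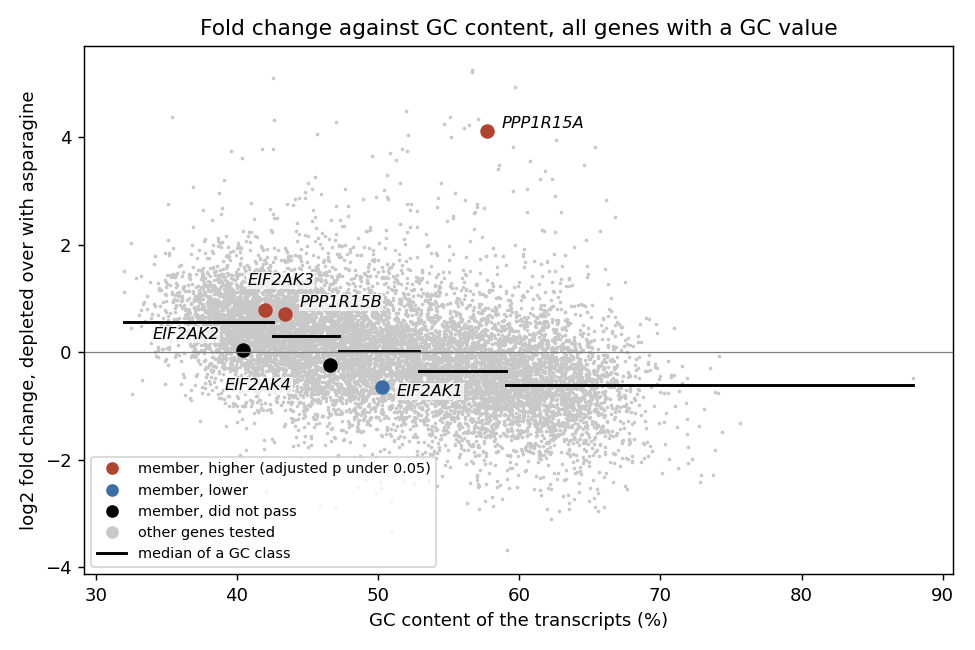
Log2 fold change (y axis, depleted over with asparagine) against the GC content of the transcripts (x axis, %) for all genes with a GC value (grey), with the 6 members marked by their call and bars at the median of 5 GC classes. PPP1R15A at 4.11 lies far from its class, whose median is -0.34, EIF2AK3 at 0.78 and PPP1R15B at 0.72 lie above class medians of 0.56 and 0.29, and EIF2AK2 at 0.04 and EIF2AK4 at -0.24 lie below theirs of 0.56 and 0.29.

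After the GC correction 3 members were higher and 3 lower, on a background of 35.1% higher and 34.4% lower among the 11352 genes with a GC value (69.5% in all). Of the kinases, EIF2AK1, EIF2AK2 and EIF2AK4 were then lower by 0.43 to 0.63 on the log2 scale and EIF2AK3 was higher. The correction moved depleted libraries 2 and 3 toward depleted library 1 for every member but EIF2AK1. It left EIF2AK1 nearly in place, at -0.79, -0.53 and -0.57 in depleted libraries 1, 2 and 3. The GC value used for EIF2AK1 rests on annotated transcripts with a median length of 782 bases, and that for EIF2AK2 on ones with a median of 1533 bases.

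**Figure D3:**
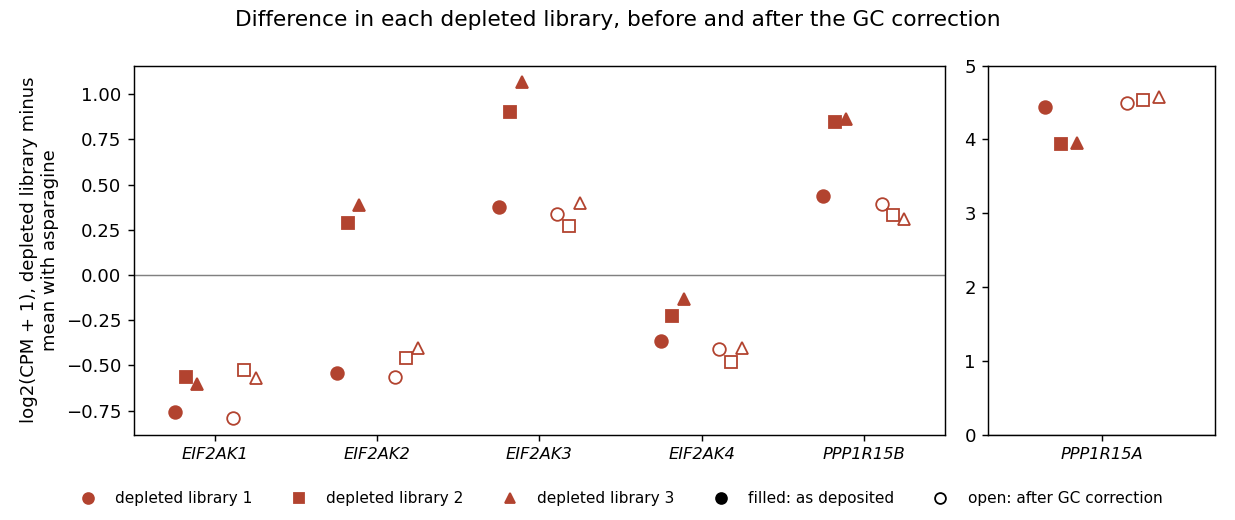
Difference in log2(CPM + 1) of each depleted library (symbols) from the mean with asparagine (y axis, 0 means equal; PPP1R15A on a scale of its own), as deposited (filled) and after the GC correction (open). EIF2AK2 spans -0.54 to 0.39 as deposited and -0.57 to -0.40 after the correction, while PPP1R15A stays between 3.94 and 4.58 in both.

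Levels of different genes were compared per length, as CPM per kilobase of the principal transcript in GENCODE. In depleted cells PPP1R15A came first at 194 ± 40.5, followed by PPP1R15B at 43.8 ± 6.93 CPM per kilobase, and neither overlapped its neighbour. The kinases followed with EIF2AK4 at 17.0 ± 1.39, EIF2AK1 at 15.1 ± 1.07, EIF2AK2 at 13.2 ± 4.24 and EIF2AK3 at 10.8 ± 2.58 CPM per kilobase, each overlapping the next. With asparagine the order was PPP1R15B (26.4 ± 1.41), EIF2AK1 (23.6 ± 0.711), EIF2AK4 (20.1 ± 1.38), EIF2AK2 (12.4 ± 1.36), PPP1R15A (10.7 ± 1.00) and EIF2AK3 (6.08 ± 0.469) CPM per kilobase. The values of EIF2AK2 and PPP1R15A overlapped, whereas other neighbours in that order did not. The place of EIF2AK2 depends on the length taken for it: with all joined exons (10276 bases in place of 4343) it had 5.59 ± 1.79 CPM per kilobase in depleted cells and 5.23 ± 0.573 with asparagine, below EIF2AK3.

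The ratio of PPP1R15A to PPP1R15B, per kilobase, was 6.73, 3.57 and 3.57 in depleted libraries 1, 2 and 3, against 0.454, 0.423 and 0.347 in the libraries with asparagine. RNA of the inducible subunit thus exceeded that of the constitutive one in each depleted library and was below it in each library with asparagine. The mean log2 ratio was 2.14 ± 0.527 in depleted cells and -1.30 ± 0.201 with asparagine (SD, n = 3 each), a difference of 3.44, and of 4.25 after the GC correction (exact two-sided permutation p = 0.1 for each, the smallest that 3 against 3 allows).

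The summed RNA of the 4 kinases was 45.7, 59.7 and 62.9 CPM per kilobase in depleted libraries 1, 2 and 3, against 60.0, 61.6 and 65.0 with asparagine, and the groups overlapped. Within that sum EIF2AK3 held 17.3%, 19.3% and 20.5% in depleted libraries 1, 2 and 3, against 9.25%, 10.2% and 9.90% with asparagine. EIF2AK1 held 30.4%, 26.7% and 24.6% in depleted libraries, against 38.1%, 38.8% and 37.3% with asparagine. Neither pair of groups overlapped, with differences of 9.28 and -10.8 percentage points (exact two-sided permutation p = 0.1 each, 0.2 after adjustment over 4 shares, where 0.1 is the smallest possible). After the GC correction the differences were 7.19 points for EIF2AK3 and -5.22 points for EIF2AK1. EIF2AK2 held 23.1% ± 4.17 in depleted cells and 19.9% ± 2.15 with asparagine, and EIF2AK4 held 30.6% ± 2.93 in depleted cells and 32.3% ± 1.33 with asparagine (SD, n = 3 each). Their groups overlapped (exact permutation p = 0.3 and 0.4, adjusted 0.4 each), with differences of 3.22 and -1.70 points as deposited and -1.27 and -0.70 points after the GC correction.

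**Figure D4:**
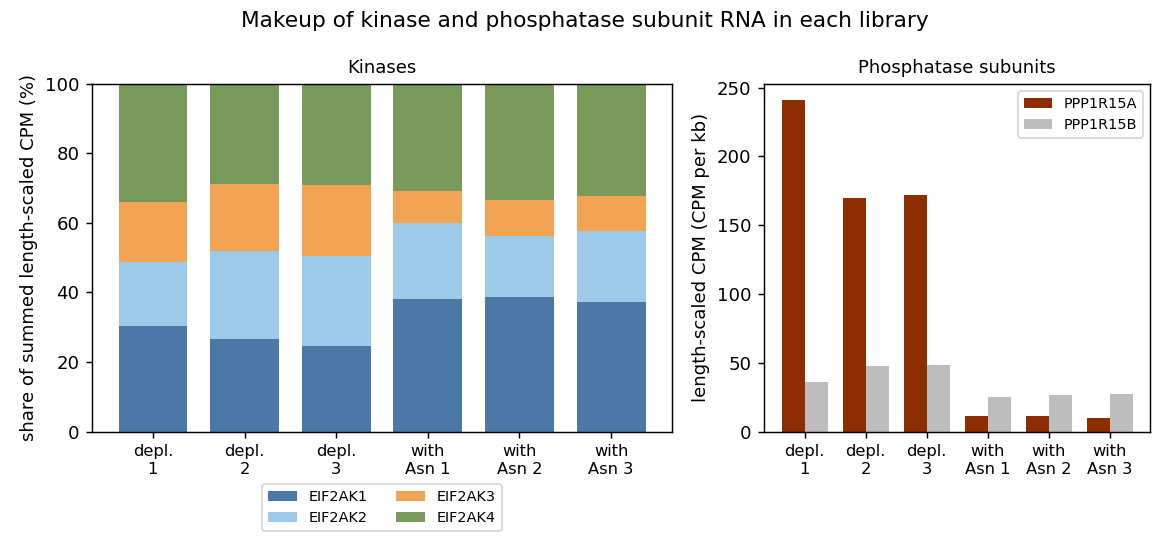
Left, share (%) of each kinase in the summed length-scaled CPM of the 4 kinases per library; right, CPM per kilobase of the 2 phosphatase subunits per library, depleted libraries to the left of those with asparagine in both. The EIF2AK3 share is 17.3% to 20.5% in depleted libraries and 9.25% to 10.2% with asparagine, and PPP1R15A stands above PPP1R15B in the 3 depleted libraries and below it in the 3 with asparagine.

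The leaders of the mRNAs, the stretch before the coding start, differ among the members in upstream ATG triplets, where reading frames that govern translation can begin. In the principal transcripts PPP1R15A and PPP1R15B have 2 upstream ATGs each, in leaders of 269 and 380 bases. EIF2AK3 has 5 in 302 bases and EIF2AK2 has 1 in 557 bases, while EIF2AK1 (147 bases) and EIF2AK4 (43 bases) have 0. Among 10412 genes of the table with an annotated leader, 49.5% had at least 1 upstream ATG and 27.3% at least 2, and the median leader was 166 bases. The 3 members that rose are the 3 with at least 2 upstream ATGs, a description over 6 genes. The RNA values say nothing of how these frames were used.

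For each member that passed, the 3 genes with the most similar values were those with the smallest root mean square difference of log2(CPM + 1) over the 6 libraries, after subtraction of each gene's mean with asparagine, among 10871 genes whose higher group reached 5 CPM. For PPP1R15A they were TRIB3, a pseudokinase gene induced by ATF4 (difference 0.082), TREML2 (0.12) and ERN1, which encodes the endoplasmic reticulum stress sensor IRE1 (0.14). ERN1 averaged 71.0 CPM in depleted cells and 2.99 CPM with asparagine. TREML2 averaged 35.3 CPM in depleted cells and 0.91 CPM with asparagine, a level at which the added 1 CPM shrinks the log2 change. For PPP1R15B they were RAB2A (0.030), KIAA1279 (0.037) and LYRM1 (0.039), for EIF2AK3 they were AVL9 (0.038), DCP1A (0.053) and MMADHC (0.054), and for EIF2AK1 they were DCAF13P3 (0.030), RDH10 (0.032) and ISCA1 (0.040).

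Around these enzymes, 7 lists of pathway genes were described by their counts and medians, beside a median log2 fold change of 0.01 over all genes tested, of which 25.1% were higher and 26.2% lower (35.1% and 34.4% after the GC correction). Where a pair of log2 fold changes stands in parentheses, the deposited value is followed by the GC-corrected one. The substrate and its exchange factor come first. Of 14 genes for eIF2, eIF2B and partner factors, 2 were higher, 5 lower and 7 did not pass (median 0.07). With GC corrected 3 were higher and 7 lower (median -0.37). The lower ones included EIF2B4 (-0.82, -0.51), EIF2B5 (-0.74, -0.61), EIF2B3 (-0.63, -0.78) and EIF2B1 (-0.36, -0.44), which encode 4 of the 5 eIF2B subunits, and CDC123 (-0.77, -0.98), an assembly factor of eIF2. EIF2B2, for the remaining subunit, averaged 37.7 ± 9.17 CPM in depleted cells and 35.7 ± 2.08 with asparagine and did not pass. The higher ones were DENR, a factor of reinitiation (0.65, 0.22), and EIF2S2, for the eIF2 beta subunit, which averaged 83.3 ± 5.62 CPM in depleted cells and 53.1 ± 2.92 CPM with asparagine (0.64, 0.37). EIF2S1, whose product carries the phosphorylated serine, had 94.1, 160 and 165 CPM in depleted libraries 1, 2 and 3, against 115, 118 and 129 CPM with asparagine, and did not pass (0.17, adjusted p = 0.554), but was lower after the GC correction (-0.39, adjusted p = 0.0017). Genes named in this and the next paragraphs beyond the 4 with the largest change in each list were chosen after their values were seen.

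PPP1R15A and PPP1R15B act through the catalytic subunits of protein phosphatase 1. Of 11 genes for these and for common regulators, 4 were higher, 2 lower and 5 did not pass (median 0.05). The GC correction left 5 higher and 3 lower (median 0.29). PPP1CB rose to 335 ± 125 CPM in depleted cells, against 145 ± 14.4 CPM with asparagine (log2 fold change 1.12, adjusted p = 0.0198, and 0.38 after the GC correction). PPP1CA averaged 469 ± 158 CPM in depleted cells and 683 ± 22.2 CPM with asparagine and did not pass (-0.59, adjusted p = 0.0607, and -0.08 after the GC correction). PPP1CC averaged 270.1 ± 69.1 CPM in depleted cells and 232 ± 10.9 CPM with asparagine and did not pass either (0.18, adjusted p = 0.474), but was lower after the GC correction (-0.29, adjusted p = 0.00765). PPP1R12A, the myosin phosphatase targeting subunit (1.23, 0.69), and PPP1R2 (0.97, 0.98) and PPP1R11 (0.88, 0.88), both inhibitors of the phosphatase, were higher. PPP1R7, a regulator of the catalytic subunit, fell to 34.4 ± 4.06 CPM, against 71.2 ± 4.77 CPM with asparagine (-1.03, -1.06), and PPP1R37 was the other one that fell (-0.82), a call that ended after the GC correction (-0.03, adjusted p = 0.64).

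GCN2 is activated with the help of GCN1 and the ribosomal stalk. Of 8 genes tested from a mixed list of possible cofactors and the stalk, 6 were lower, 0 were higher by limma (0 also at an unadjusted p under 0.05 and after the GC correction) and 2 did not pass. What each listed gene does to GCN2 was not tested. The median was -0.77. After the GC correction 7 of the 7 with a GC value were lower (median -0.54). GCN1 fell to 255 ± 42.8 CPM in depleted cells, against 493 ± 19.5 CPM with asparagine (-0.96, -0.61). DRG1, a GTPase gene (-1.05, -1.23), ABCF3, related to the yeast GCN1 partner GCN20 (-0.85, -0.44), and the stalk genes RPLP2 (-0.88, -0.34) and RPLP1 (-0.70, -0.54) were lower as well. For RPLP1, depleted library 1 had 2031 CPM and depleted libraries 2 and 3 had 1110 and 1063 CPM, against 2130, 2257 and 2135 CPM with asparagine. Reads of stalk genes are uncertain because processed pseudogenes carry the same sequence.

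Of 9 genes for activators and inhibitors of PKR, 1 was higher, 4 were lower and 4 did not pass (median -0.14). With GC corrected 2 were higher and 5 lower (median -0.35). The higher one was DNAJC3, whose product inhibits PKR and PERK, with 76.0 ± 25.4 CPM in depleted cells and 36.9 ± 6.19 CPM with asparagine (0.97, 0.46). TARBP2 (-0.85, -0.36), NPM1 (-0.85, -1.26) and DUS2 (-0.82, -0.77) were among the lower ones. EIF2AK2 is itself induced by interferon. Of 17 interferon-stimulated genes tested, 4 were higher, 5 lower and 8 did not pass (median -0.16), with ISG15 (-1.67, -0.99), IFI6 (-1.20, -0.85) and OAS1 (-0.90, -0.87) lower and IRF9 (0.88, 1.24) higher. In GC-corrected values 5 were higher and 8 lower (median -0.22).

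Of 11 genes for regulators of PERK and HRI, 3 were higher, 7 lower and 1 did not pass (median -0.73). Once GC was corrected, 3 of the 10 with a GC value were higher and 6 lower (median -0.50). HSPA5, the chaperone gene BiP whose product holds PERK inactive, fell to 319 ± 16.7 CPM in depleted cells, against 529 ± 30.9 CPM with asparagine (-0.73, -0.95). HSP90AB1 (-2.12, -2.25) and HSP90AA1 (-1.72, -2.04), chaperones that HRI and PKR need to mature, were lower, as were STUB1 (-1.37, -0.74) and FKBP8 (-0.99, -0.26). KIAA0141, the older symbol of DELE1, whose product carries mitochondrial stress to HRI, averaged 65.6 ± 4.53 CPM in depleted cells and 86.2 ± 3.06 CPM with asparagine (-0.39, adjusted p = 0.0292, with no GC value). The higher ones were NCK1, an adaptor gene (0.85, 0.37), HYOU1, an endoplasmic reticulum chaperone (0.43, 0.74), and OMA1, the protease that cleaves DELE1 (0.64). The call of OMA1 ended after the GC correction (0.18, adjusted p = 0.0513).

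Downstream, of 9 mRNAs whose translation is known to depend on upstream frames, 4 were higher, 1 lower and 4 did not pass (median 0.88). In GC-corrected values 6 were higher and 1 lower (median 0.48). ATF5, a transcription factor gene of the stress response, had 1007, 716 and 675 CPM in depleted libraries 1, 2 and 3, against 222, 219.7 and 219.98 CPM with asparagine (1.83, 2.44). CEBPB rose to 149.9 ± 52.7 CPM in depleted cells, against 19.4 ± 1.72 CPM with asparagine (2.84, 3.59). DDIT3, which encodes CHOP, an activator of PPP1R15A transcription, rose as well (3.31, 3.34), and so did EPRS, a tRNA synthetase gene (0.88, 0.46). CEBPA was the lower one, at 14.8 ± 5.78 CPM in depleted cells and 40.2 ± 2.18 CPM with asparagine (-1.44, -0.70). ATF4 itself had 686, 400 and 383 CPM in depleted libraries 1, 2 and 3, against 400, 420 and 378 CPM with asparagine. Only depleted library 1 lay above the range with asparagine. The gene did not pass (0.24, adjusted p = 0.397), but was higher after the GC correction (0.55, adjusted p = 0.00294).

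**Figure D5:**
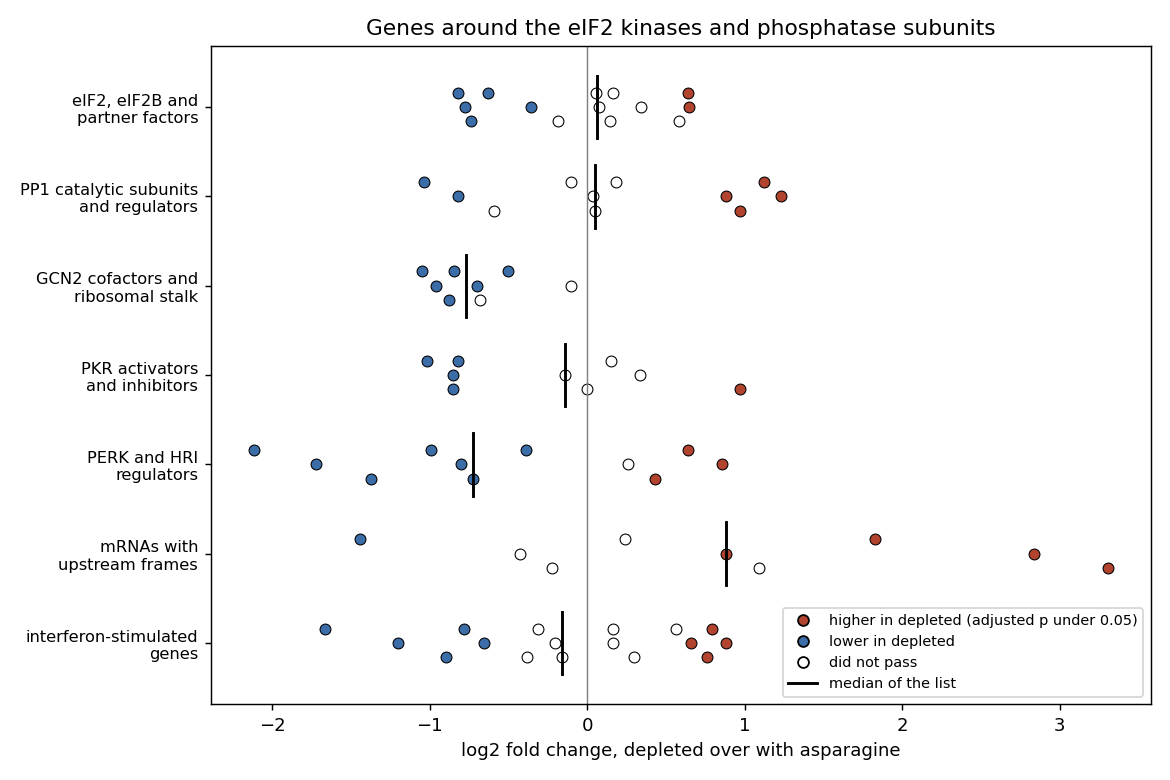
Log2 fold change (x axis, depleted over with asparagine) of every tested gene in the 7 lists, 1 point per gene, filled red or blue where it was higher or lower at an adjusted p under 0.05 and open where it did not pass; bars mark list medians, from -0.77 for GCN2 cofactors and the stalk to 0.88 for mRNAs with upstream frames. Vertical offsets within a list only separate the points.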

How the data were processed

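Libraries of Trizol-extracted total RNA were sequenced, per the labels. The submitters' processing notes name FastQC, STAR, featureCounts, Subread and GRCh38. Versions, annotation, strand setting and scaling are not given in the sources. The unit of the deposited table is normalized CPM, a signal per gene that the authors scaled for depth and by a further, unstated factor. Columns were matched to samples by arm and replicate number, because their names differ from the titles. In each column 100% of values were whole multiples of 1 step, within 1e-06 of a read, which gave the reads; 3 reads equal 0.0598 to 0.092 CPM.

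Values were analysed as log2(CPM + 1) in R 4.3.3 with limma 3.58.1, with an intensity trend, after a filter of 1 CPM in 3 or more libraries. Adjusted p-values of genes are from that model with Benjamini-Hochberg adjustment at 0.05. Those of the kinase shares adjust exact permutation p-values over the 4 shares. Fold changes in words are ratios of mean CPM. The GC correction removed a lowess trend (span 0.3) per library, and 95.5% of genes had a GC value from GENCODE 29. That value is the median over a gene's annotated transcripts, the protein-coding ones where there are any. Members and lists were chosen with earlier results of these data known. The rule for naming list genes took up to 4 per list, by size of change, that passed and reached 5 CPM in the higher group; others were named after their values were seen. One gene that the rule takes is not reported here. Alternatives covered pseudocount, filter, scaling, variance model, replicate block, GC, threshold and left-out libraries. Promoters came from RefSeq.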

Additional observations from a re-analysis of the deposited data

How the results depend on the processing

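Over 22 alternatives the log2 fold change of PPP1R15A ranged from 3.95 to 4.55, that of PPP1R15B from 0.32 to 0.85 and that of EIF2AK1 from -0.76 to -0.55, and all 3 stayed past the threshold, the setting with a single depleted library aside, which gives values only. EIF2AK3 ranged from 0.33 to 0.98 and kept its sign, but did not pass at an adjusted p under 0.01 (log2 fold change 0.78). With single libraries left out it ran from 0.64 to 0.98. EIF2AK2 was -0.48 after the GC correction and with the GC correction and replicate block, -0.43 with the GC correction without depleted library 1, -0.54 without depleted libraries 2 and 3, and -0.13 to 0.34 with single libraries left out; its share of kinase RNA differed by -1.27 percentage points with GC corrected. EIF2AK4 passed at -0.43 after the GC correction, with or without the replicate block, and at -0.44 with the GC correction without depleted library 1, and was -0.37 without depleted libraries 2 and 3. That setting leaves 1 depleted library, whose spread is assumed to be that of the libraries with asparagine. The cause was not tested.

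Genes higher and lower numbered 2987 and 3116, and 1612 and 1703 at a threshold of 0.01. With single libraries left out they ran from 1728 to 4812 and from 1814 to 4913, the highest without depleted library 1, and 4487 were higher with the GC correction without that library. Same-numbered deviations from the group means correlated at 0.08, -0.65 and 0.69, and differently numbered ones at -0.74 to 0.71. These values cannot tell whether replicate numbers pair the samples, because deviations within a group of 3 are tied to each other. The replicate block gave 2824 higher and 2989 lower genes and changed no call of a member. Fits without depleted libraries 2 and 3 and lengths from joined exons were added after seeing the data. The 2 planned count models were not run, since reads were recovered from scaled values. A trimmed mean scaling moved the median of all genes to 0.04.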
